A study of Drosophila melanogaster with 4 samples.

Results

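Narrow Homothorax peaks that stand in long rows along chromosome arms 2L, 3L and 3R of Drosophila melanogaster are described here. Peaks were placed in the same run where no more than 5 kb lay between one and the next, and a long run held 10 or more peaks. Members were the peaks of long runs that were at most 2 kb wide. By this rule 1338 peaks in 87 long runs were members, out of 4266 peaks on the 3 arms and 6207 in the authors' list. The members were chosen by the position and width of the peaks, and both came from the comparison of ChIP with input that also gave the score. All values from the list are therefore descriptions, with no test.

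The study mapped Homothorax by chromatin immunoprecipitation and sequencing (ChIP-seq) in whole embryos labelled 0 to 8 h, although the labels' protocol text opens with a later laying window. The 4 libraries were 2 of ChIP DNA, made with a crude guinea pig polyclonal serum against the full-length protein, and 2 of input DNA. ChIP and input embryos were of the same strain, labelled y cn bw sp, and of unstated sex. Both groups carried y[1] and oc[R3.2], the markers bw[1], sp[1] and cn[1], and the further alleles CG33964[R4.2], Gr22d[1], Gr22b[1], GstD5[1], Rh6[1], MstProx[1], LysC[1] and lab[R4.2]. A single peak list covers the whole series, so no value belongs to a library, no replicate error exists, and the read depth is unknown. A whole embryo mixes many cell types, and occupancy in a few cells cannot be told apart from weak occupancy in many.

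Homothorax belongs to the TALE family of homeodomain proteins. It binds DNA with its partner Extradenticle, brings Extradenticle into the nucleus, and both act as cofactors of the Hox proteins. Developmental genes of the fly often have many separate enhancers spread over large introns and flanking DNA, and a factor bound at several of them gives several neighbouring peaks.

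Members made up 34.0% of the 3930 peaks at most 2 kb wide on the 3 arms. On 3R, 537 members in 33 runs were 37.7% of such peaks, on 2L 424 members in 27 runs were 34.1%, and on 3L 377 members in 27 runs were 29.9%. The long runs also contained 198 peaks over 2 kb, here called broad, so that members were most but not all of the 1536 peaks in them. Together the runs spanned 2962 kb, of which 54.4% lay inside peaks. Per kb of run there were 0.382 members in the case of 2L, 0.480 for 3L and 0.504 for 3R. The runs of 2L held 94 broad peaks and were 59.8% inside peaks, those of 3L held 40 (48.8%) and those of 3R 64 (52.8%). Of the 94 broad peaks, 19 lay in the 172 kb run at 2L 14416154 and 17 in the 92.4 kb run at 2L 21451050. These runs had only 0.145 and 0.227 members per kb and were 88.3% and 76.7% inside peaks, so they weigh on the values of 2L. Median gaps between peaks were 485 bp on 2L, 537 bp on 3L and 458 bp on 3R. The value of 2L includes the same 2 runs, whose median gaps were 197 and 530 bp. No value of 2L without them was computed.

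Most long runs lay near the lower limit of 10 peaks. The number of peaks per run had a median of 13 and reached 56, and the number of members per run ranged from 5 to 47 with a median of 12. The 51 runs of 10 to 14 peaks contained 526 members, or 39.3%, while the 11 runs of 30 or more peaks contained 345 members, or 25.8%. Run length had a median of 26.4 kb, from 12.5 to 172 kb. The share of a run inside peaks ranged from 26.1% to 88.3% with a median of 51.2%. In 18 runs every peak was a member, 24 runs had 1 broad peak and 45 had 2 or more.

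**Figure D1:**
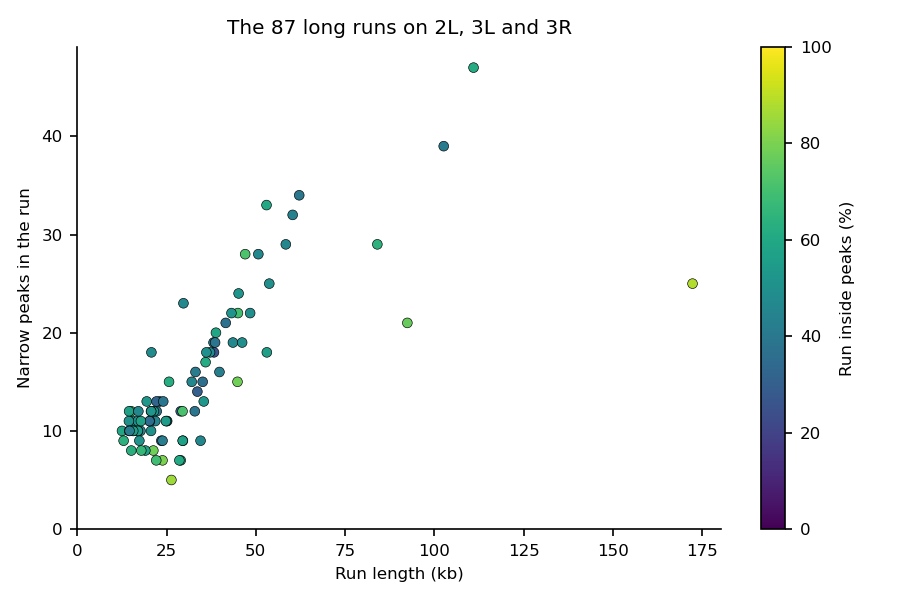
Each point is 1 of the 87 long runs, by its length in kb (x axis) and its number of narrow peaks (y axis), and the colour gives the percent of the run that lies inside peaks. Narrow peaks per kb ranged from 0.145 to 0.867 over the runs, with quartiles of 0.413 and 0.583. The 172 kb run on 2L lies far to the right with 25 narrow peaks and has the lowest number per kb.

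Median member score and width were somewhat lower in the largest runs. The score is the authors' value for each peak, and its scale is unstated in the labels and the file. Median member score was 15.44 in runs of 30 or more peaks, 16.35 in runs of 20 to 29, 15.67 in runs of 15 to 19 and 16.84 in runs of 10 to 14. Over the 87 runs, the number of peaks and the median member score had a Spearman rho of -0.25, a description since all runs share the same libraries. Median member width was 489, 497, 501.5 and 509.5 bp in the same order of run sizes, from the largest down. The highest score of a run, from a member or a broad peak, was greater in larger runs, with a median of 217.75 at 30 or more peaks and 112.02 at 10 to 14 peaks. A larger run offers more peaks from which the highest is taken.

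Several of the runs with most members fell in regions that are known for developmental regulators. The regions below are named from general knowledge of the fly map, because no annotation of release 5 was used, and nothing is stated on exons, introns or UTRs. Gene symbols and arms were looked up in a RefSeq table of release 6, and the order of genes along the arm was compared with the order of the runs. The order was the same for 5 of 5 loci on 2L and 4 of 4 on 3R. The names came from the known map, so this order could hardly differ, and it cannot show how near a run lies to its gene. Such regions were chosen with the runs in view, so their names are no evidence of enrichment.

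The run with the most members lay on 2L at 21788757 to 21899724, in the region of tsh, which encodes a zinc finger protein needed for trunk identity. It held 47 members and 9 broad peaks over 111 kb. Its members scored between 7.43 and 105.44 (median 14.35). Of the 47, 4 scored 40 or more, against 14.6% of all members. The best member, at 2L 21827771 to 21829416, was peak 19 of the row. The top score of this run, 375.76, belonged to a broad peak of 5.72 kb. Most members here were thus low peaks, in a row whose top peak was broad.

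On 2L at 5390419 to 5493029, in the region of the T-box transcription factor genes H15 and mid, 39 members and 6 broad peaks lay over 103 kb. Here a narrow peak carried the top score of the run. It lay at 2L 5403360 to 5404347, was 988 bp wide and scored 289.85, while the median of the members was 13.89 and the lowest 7.31. In this run 7 of the 39 members scored 40 or more, the highest number in any of the 87 runs and shared with 1 other. Over all members the share was 14.6%, and a run with more members offers more of them to count. After its last peak no peak was listed for 343 kb, the longest empty stretch beside a long run.

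The bithorax complex contains the Hox genes of the abdomen. Its region around abd-A, at 3R 12616090 to 12678236, had 34 members and a single broad peak in 62.1 kb. The members scored 7.70 to 219.07 with a median of 15.62. The best, at 3R 12636633 to 12638502, was peak 12 of the row, and another at 3R 12627997 to 12629580, peak 6 of the row, scored 215.39. They ranked 3 and 4 by score among all members. The run followed 2 other long runs, at 3R 12566758 to 12581876 with 8 members and at 12589112 to 12609808 with 12 members and a distance of 7.24 kb between them. The nearer one ended 6.28 kb before this run.

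Other runs with many members lay on 3R. A run at 3R 899275 to 952268, to which no gene is assigned here, held 33 members in 53.0 kb with scores of 8.02 to 76.58 and a median of 15.50. Its top score of 208.74 was that of a broad peak 6.03 kb wide. In the NK homeobox cluster, which contains the muscle and heart regulators tin, lbe, lbl and slou, the run at 3R 17236957 to 17297269 held 32 members in 60.3 kb. They scored 7.48 to 166.81 with a median of 18.70, and 6 of them scored 40 or more. The best member, at 3R 17271770 to 17272929, was the top peak of the run. In these 5 runs the median member score was 13.89 to 18.70 and the best member scored between 76.58 and 289.85. Over all 87 runs the median member score had quartiles of 14.35 and 18.76, and 4 of these 5 runs lay between them.

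**Figure D2:**
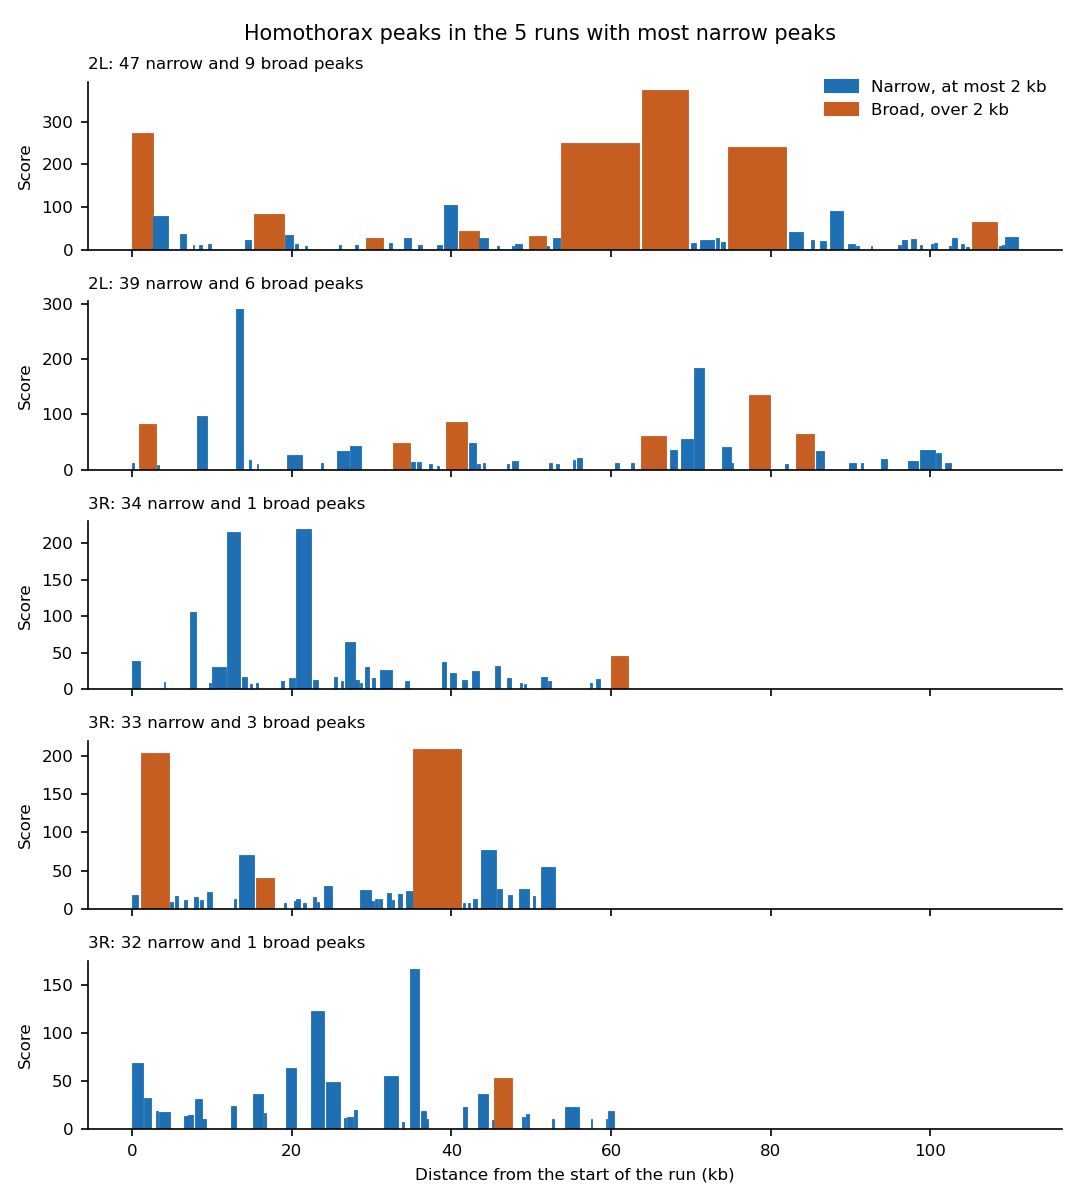
Peaks of the 5 runs with most narrow peaks, by distance from the start of the run in kb (x axis) and the authors' score (y axis, a separate scale for each run); the width of a bar is the width of the peak, with peaks at most 2 kb in blue and broad peaks in orange. A few high narrow peaks stand among many low ones in each row, and in the maps headed 39, 34 and 32 narrow peaks the tallest bar is a narrow peak.

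In the region of hth itself, at 3R 6415929 to 6499955, 29 members and 6 broad peaks lay over 84.0 kb. The members scored 7.93 to 56.45 with a median of 13.64, and the top score of 217.75 was that of a broad peak. In the Antennapedia complex, which contains the Hox gene Antp and the pair-rule gene ftz, the run at 3R 2685208 to 2732222 held 28 members and 4 broad peaks in 47.0 kb. Its members scored 7.27 to 164.60 with a median of 14.90, and neighbouring peaks lay a median of 238 bp apart. Near SoxN, which encodes a SoxB factor of the early nervous system, 25 members at 2L 8808513 to 8862277 scored 9.17 to 183.96. The best of them was the top peak of that run.

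The densest runs by members per kb held 10 to 24 peaks. The highest density was 0.867 per kb at 3L 12657525 to 12678279, in the region of the Iroquois complex, whose genes ara, caup and mirr encode homeodomain proteins. That run consisted of 18 members in 20.8 kb with no broad peak, and its members scored between 6.99 and 126.38 (median 15.14). The next densest lay at 3L 613089 to 627598 (0.827 per kb, 12 members), at 2L 19154475 to 19166993 (0.799 per kb, 10 members), at 2L 20770023 to 20785119 (0.795 per kb, 12 members) and at 3R 8072720 to 8102446 (0.774 per kb, 23 members). In the run at 3L 613089 the median gap was 134 bp, the shortest among the long runs.

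The lowest density was 0.145 members per kb, in the longest run, at 2L 14416154 to 14588444 in the region of the zinc finger gene noc. There 25 members stood among 19 broad peaks, which reached 31.9 kb in width, and 88.3% of the run lay inside peaks. The members scored 8.72 to 118.66 with a median of 14.56. Next came a run at 3L 5961787 to 5988140 with 5 members and 5 broad peaks (0.190 per kb). After it, the run at 2L 21451050 to 21543478, (0.227 per kb) lay in the histone gene cluster, a tandem array in which near-identical copies make the placing of reads uncertain. Its 21 members scored 10.34 to 29.76 with a median of 17.70, and no peak of the run exceeded 37.65. The other two were at 2L 19313352 to 19342311 (0.242 per kb, 7 members) and at 3R 799304 to 827892 (0.245 per kb, 7 members).

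Across all members the median score was 16.17, with an interquartile range of 11.16 to 26.85 and extremes of 6.39 and 310.98. Width ran from 201 to 1998 bp, with a median of 502.5 bp and an interquartile range of 299 to 883 bp. The lowest width was also 201 bp among narrow peaks outside long runs, and whether the peak caller set it was not tested. By arm, the median score was 16.26 for members of 2L, 17.80 for those of 3L and 15.44 for those of 3R. A score under 20 was held by 839 members. Of all members, 196 scored 40 or more, which is 14.6% (exact binomial 95% interval 12.8 to 16.7%, counting error only), and these lay in 72 of the 87 runs. Only 34 members, in 25 runs, reached 100. High narrow peaks were thus spread over most runs, at a median of 2 and at most 7 per run. The runs held a median of 12 members each.

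Of the 10 members with the highest scores, 2L and 3L had 3 each and 3R had 4. Of all members, 2L had 424, 3L 377 and 3R 537. The highest, at 3L 14964455 to 14966238, scored 310.98, was 1784 bp wide and stood in place 17 of 20. On 2L at 8824736 to 8826070 a member scored 183.96, and at 5460789 to 5462027 another scored 183.31. On 3R at 2718639 to 2720279 a member scored 164.60. The remaining 2 were on 3L, at 12691571 to 12693325 with 163.40 and at 13051221 to 13053153 with 160.43. All 10 stood inside their run rather than at its ends, as did 1187 of all 1338 members. With no error on any score, the order of close scores is descriptive.

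Members were compared with narrow peaks of short runs (2 to 9 peaks) and with solitary narrow peaks, which had no other peak within 5 kb. Median width was 502.5 bp in members, 448 bp in short runs and 393 bp in solitary peaks. Median score was 16.17 in members, 15.14 in short runs and 15.22 in solitary peaks. The upper tail differed more in value, with a 90th percentile of 51.0 in members, 47.2 in short runs and 36.8 in solitary peaks. Scores of 40 and above were found in 14.6% of members, 13.1% of narrow peaks in short runs and 8.95% of solitary ones. A gap depends on the widths of the peaks on both sides, so these differences are not independent of the rule. The size of this effect was not tested.

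Within classes of like width, members no longer had a higher median score than solitary peaks. Up to 300 bp the median score was 10.34 in 341 members, 10.28 in short runs and 10.44 in solitary peaks. Over 300 and up to 500 bp it was 13.58 in 324 members, 13.34 in short runs and 15.10 in solitary peaks. Over 500 and up to 1000 bp it was 20.20 in 408 members, 22.19 in short runs and 23.06 in solitary peaks. Over 1000 and up to 2000 bp it was 43.14 in 265 members, 45.95 in short runs and 43.23 in solitary peaks. Members had the lower median of members and solitary peaks in all 4 classes, and their interquartile ranges overlapped in each. The widest class held 19.8% of members, 14.8% of narrow peaks in short runs and 10.0% of solitary peaks. Across members, width and score had a Spearman rho of 0.82.

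**Figure D3:**
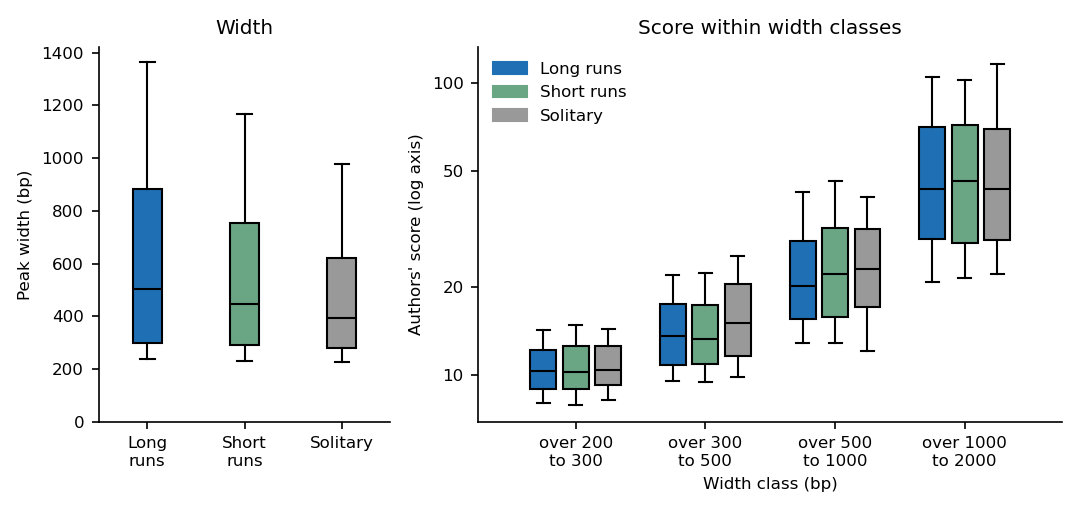
Width in bp (left) and the authors' score on a log axis within 4 width classes (right), for narrow peaks of long runs, of short runs and solitary ones; boxes give the quartiles and median over peaks, and whiskers the 10th and 90th percentiles. Width decreases over the 3 kinds, from a median of 502.5 bp to 448 and 393 bp, whereas the score boxes overlap inside every width class.

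Peaks inside long runs were unevenly spaced. The 1449 gaps ran from 44 to 4985 bp, with a median of 486 bp and quartiles of 197 and 1246 bp. The lowest gap was 44 bp in short runs too, and on each arm. Whether this shared lowest value is a limit set by the peak caller was not tested. Gaps under 100 bp made up 12.3%, gaps under 500 bp 50.7% and gaps under 1 kb 69.8%. In short runs, 42.2% of 1501 gaps were under 500 bp, and the median was 721 bp. Long and short runs were formed from the gaps themselves, so this difference is not independent of the rule. No single spacing stood out in the distribution of gaps. From centre to centre, neighbours in long runs lay a median of 1564 bp apart, with quartiles of 982 and 2553 bp. Successive gaps showed little relation to each other (Spearman rho 0.05 over 1362 pairs that share a peak), so that short and long gaps were mixed along the row. Median gaps per run ranged from 134 to 1830 bp, and every run had at least 1 gap of 292 bp or less.

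**Figure D4:**
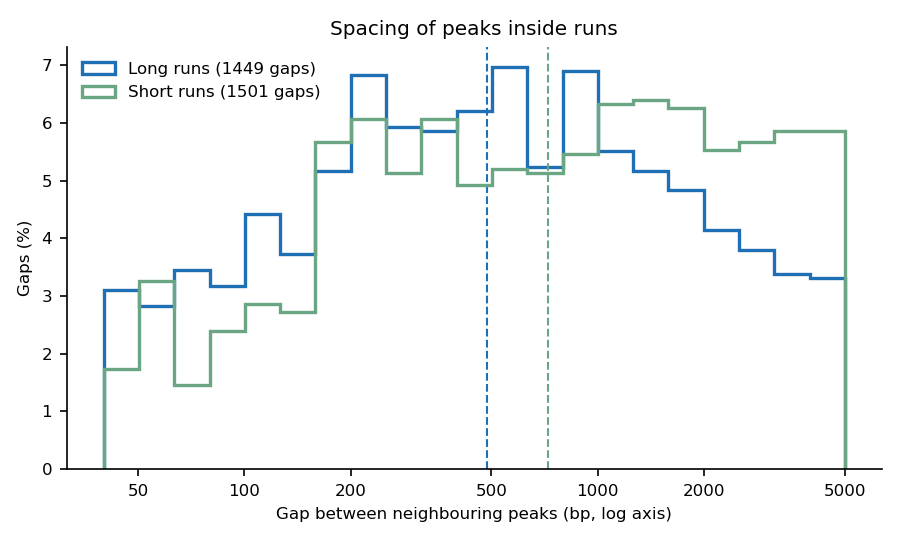
Percent of gaps between neighbouring peaks by gap length in bp (log axis), for long runs and short runs, with dashed lines at the medians of 486 and 721 bp. Gaps of 2 kb or more make up 14.4% in long runs and 22.9% in short runs, and neither curve has a sharp single peak. The runs were formed from these gaps, so the difference between the curves is not independent of the rule.

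The kind of neighbour went with the gap. Between 2 narrow peaks the median gap was 538 bp (1111 gaps), between a narrow and a broad peak 349 bp (303 gaps) and between 2 broad peaks 379 bp (35 gaps). A broad peak stood next to 283 members, or 21.2%, and 20 of these had one on both sides. Members beside a broad peak had a median score of 15.95 and a median width of 467 bp, against 16.18 and 509 bp for the 1055 members beside none. The highest score beside a broad peak was 122.49, and members with no broad neighbour reached 310.98. The second group is larger, with 1055 members against 283, and so offers more peaks from which the highest is taken.

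Close neighbours were common. Another peak lay within 200 bp of 549 members, or 41.0%, and a further 399, or 29.8%, had their nearest neighbour at 200 to 500 bp. A nearest neighbour 1 kb or more away was found for 191 members, or 14.3%. Median score was 16.17 in the closest class, 16.89 at 200 to 500 bp, 14.77 at 500 to 1000 bp and 15.45 farther away. Across members, score and distance to the nearest neighbour had a Spearman rho of -0.05. If peaks less than 200 bp apart had been listed as 1, 274 members, or 20.5%, would lie in joined stretches over 2 kb, and at less than 500 bp 669 members, or 50.0%. The sources used here give neither the calling threshold nor any joining of near peaks by the authors, and the part of peak splitting in the number of members was not tested.

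Members at the ends of runs had higher median scores than inner members. The first peak of a run was a member in 75 of 87 runs and the last in 76, or 86.2% and 87.4%, against 87.2% of inner peaks. First members had a median score of 20.23 with quartiles of 12.03 and 32.22, last members one of 17.27 with quartiles of 11.89 and 30.36, and the 1187 inner members one of 15.89 with quartiles of 11.09 and 26.33. First and last are only directions along the arm sequence. Second peaks that were members had a median of 16.48, and second from the end 16.39, close to the inner value. Of the 174 end peaks, broad ones included, 78 scored under the median of their run, or 44.8% (exact binomial 95% interval 37.3 to 52.5%, counting error only). The share was 41.4% of first peaks and 48.3% of last peaks. Among the 1362 inner peaks it was 49.3%, inside the interval of the end peaks.

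The top peak of a run could stand anywhere in the row. With the places of each run divided into 5 equal parts of 20%, it lay in the first part in 21 runs and in the following ones in 18, 14, 17 and 17 runs. It was at an end in 11 runs. A member was the top peak in 33 runs, or 37.9% (exact binomial 95% interval 27.7 to 49.0%, counting error only). This share depended on the width limit, with 9.20% when members were at most 1 kb wide and 80.5% at 4 kb, and it was 10.3% when peaks closer than 500 bp were joined first. In 18 of these no broad peak was present, so a member had to be highest, and in the other 15 a narrow peak scored above every broad peak. Where a member was highest, the top score had a median of 106.71, and where a broad peak was highest, 139.92.

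Scores showed no fall with distance from the top peak in these medians. The 147 members next to it had a median score of 14.67, at a median gap of 472 bp. Those 2 places away had 15.63, those 3 places away 14.69, those 4 away 14.94 and those 5 away 16.91. At 6 to 10 places the median was 16.75 and at more than 10 places 15.50. Scores of 40 and above were found in 8.84% of members next to the top peak and by 10.7 to 16.3% of those in the other classes. In long runs the scores of neighbouring peaks, broad ones included, had a Spearman rho of 0.02. It was taken over 1449 pairs, in which most peaks enter 2 pairs. High and low peaks of both kinds together were thus mixed along the rows.

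**Figure D5:**
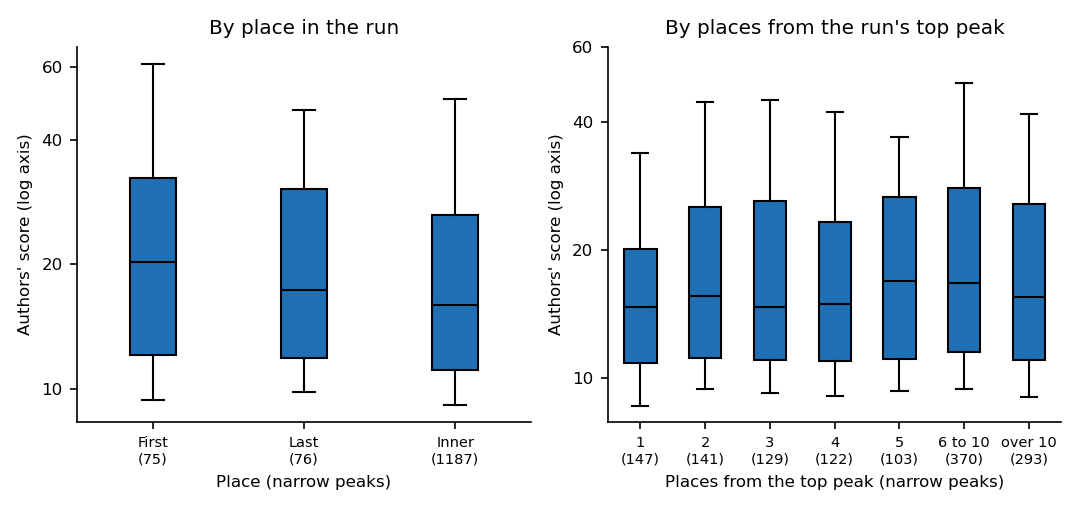
The authors' score (log axis) of narrow peaks in long runs by place in the run (left) and by the number of places from the top peak of the run (right), with the number of peaks in brackets; boxes give the quartiles and median and whiskers the 10th and 90th percentiles. The boxes overlap in both panels, with medians of 20.23, 17.27 and 15.89 for first, last and inner peaks.

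The values on both sides of each limit of the rule were as follows. The widest member was 1998 bp and the narrowest broad peak of a long run 2025 bp. The 11 members of 1900 bp or more had a median score of 65.88, and the 23 broad peaks of up to 2200 bp one of 50.47. Runs of exactly 10 peaks numbered 15 with 128 members and a median member score of 17.25. Just outside the rule, 12 runs of 9 peaks held 98 narrow peaks with a median score of 15.22. The longest gap inside a long run was 4985 bp, and the shortest outside an end was 5037 bp. Outside the 174 ends the gap had a median of 10.7 kb, and it was under 7.5 kb at 54 ends and over 20 kb at 51.

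Some long runs were themselves neighbours. In 14 cases 2 long runs followed each other with no peak between them. The closest pair, at 3L 18206555 to 18243725 and 18248810 to 18292394, had 18 and 19 members on either side of 5.08 kb. On 3L in the Iroquois region, runs at 12546691 to 12584962 and 12590224 to 12603200 were separated by 5.26 kb, and the densest run was followed after 7.47 kb by another with 19 members. On 3R, 3 long runs in a row lay at 25334481 to 25412768 with 10, 9 and 10 members. These pairs were chosen for their gap and depend on the limit of 5 kb.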

How the data were processed

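The authors deposited 1 peak list for the series. Per the file headers, it was written by MACS with coordinates on FlyBase release 5, and each line lists the start, end and score of a peak. The sources used here do not give the scale of the authors' score, pooling of replicates, threshold or filters. Per the submitters' processing notes, CASAVA 1.7.0.2 and 1.7.0.3, BWA and MACS2 were used with build BDGP5.

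Width, gaps, runs and place were computed from 1-based positions with Python 3.11.15 (scipy 1.17.1, pandas 2.3.3, numpy 2.4.6) and plotted with matplotlib 3.10.9. The gap was the start minus the preceding end minus 1. The run finder was tested on simulated lists with known runs. No sequence was read, because no genome of release 5 was used, so motifs and base composition were not analysed here.

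Named runs and peaks followed a rule: the 5 runs with most, densest and sparsest members, the longest run and the 10 highest members. Other runs were named with their values in view. The members, the loci and all lists were chosen with earlier results of these data known. Alternatives changed the gap, run size, width, score threshold, joining of peaks and the runs included.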

Additional observations from a re-analysis of the deposited data

How the results depend on the processing

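Of 72 alternative values (8 results under 9 settings), 46 stayed within the 95% interval of the value or, for counts, within 1.5 times, and 26 moved. These intervals treat the peaks, gaps or runs of 1 list as independent, and the alternative sets share peaks with the main one. They are narrower where more items enter, so staying or moving is a label and measures no replicate error. Runs of 15 or more peaks gave 812 members in 36 runs, and 87.8% of members with a neighbour closer than 1 kb, against 85.7% in the main rule. The 50% of peaks with the highest score gave 161 members in 16 runs, a median gap of 877.5 bp, score of 26.33 and width of 883 bp, 25% of runs with a member on top and 73.3% of members with a neighbour closer than 1 kb. Joining peaks closer than 500 bp first gave 273 members in 29 runs, a median gap of 1298.5 bp, width of 708 bp, 10.3% of runs with a member on top and 49.8% with a near neighbour. A gap limit of 3 kb gave a median gap of 407 bp and 91.8% with a near neighbour, and one of 10 kb gave 592 bp and 80.5%. With members at most 1 kb wide, median score was 13.89, width 411 bp and runs with a member on top 9.20%, and at 4 kb 17.68, 584.5 bp and 80.5%. Each setting admits a different set of peaks or runs, and no other cause of these moves was tested. No value moved by this measure with runs of 8 or more peaks or without the 2 runs most covered by peaks. The share of end peaks under the run median moved in no setting, but its interval of 37.3 to 52.5% is wide and its values ran from 37.5 to 50%. The width limit does not enter the number of runs, the median gap or the share of end peaks. These values could therefore not move when it was changed. No paired analysis was possible because the list holds no values per library, and no replicate could be left out. Motif settings were not run, since no genome of release 5 was used here. Depth is unknown.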

Other observations

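The same rule was applied to the remaining arms as values only. On 2R, 17 long runs held 208 of 928 narrow peaks, or 22.4%, with a median score of 14.32. On X, 2 long runs held 23 of 591 narrow peaks, or 3.89%, with a median score of 11.61. On chromosome 4 no run reached 10 peaks, and all 45 of its peaks were narrow. The largest run had 29 peaks on 2R and 13 on X, against 56 on 2L.

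Across the 87 long runs, members per kb and the median member score had a Spearman rho of -0.14, a description since all runs share the same libraries. The ratio of the highest to the median member score in a run, which depends on the unknown scale of the score, had a median of 4.14 and ranged from 1.25 to 20.9.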
